A study of Mus musculus with 8 samples.

Results

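Hearts of fat-1 transgenic mice and of wild-type (WT) mice were compared after transverse aortic constriction (TAC), with 2 RNA-sequencing libraries of the Fat1-TAC group set against 2 of the WT-TAC group. Of 25929 listed genes, the 14154 at 1 FPKM or more in at least 2 of these 4 libraries were examined. FPKM relates the fragments of a gene to the length of its transcript and the depth of the library. All 8 libraries of the study entered the fit, which covered 14442 genes, and the 2 WT-Sham and 2 Fat1-Sham libraries served as background measured in the same way. The mice were littermates, aged 3 months at surgery, with the strain labelled C57BL/6 for WT and Fat-1 for the transgenic groups. WT-TAC mice carried no transgene and had a suture tied around the aortic arch, Fat1-TAC mice carried the transgene and had the same suture, and the corresponding sham groups underwent the operation without constriction. Libraries carry the name of the group followed by 1 or 2, and paired values below give library 1 first. According to the methods RNA came from the whole heart, whereas the labels state ventricular tissue. Only mouse genes are tabulated, and expression of the transgene was not analysed here.

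Constriction of the aorta raises the pressure against which the left ventricle has to pump, and sustained overload is known to lead to hypertrophy, fibrosis and, in time, dilatation. The fat-1 gene of Caenorhabditis elegans encodes a desaturase that mammals lack, which converts n-6 into n-3 polyunsaturated fatty acids (PUFAs). Fatty acids of the n-3 series are incorporated into membranes, serve as precursors of lipid mediators and bind nuclear receptors of the PPAR family, which control fatty acid oxidation.

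The WT-TAC libraries differed from each other more than the Fat1-TAC libraries did, and WT-TAC1 stood apart from the other 7 libraries. Among the 14154 genes, 2499 lay more than 2-fold apart between WT-TAC1 and WT-TAC2 on the FPKM + 1 scale, against 331 between Fat1-TAC1 and Fat1-TAC2. Between the genotypes the number was 4827 and 4244 for WT-TAC1 against either Fat1-TAC library, and 1044 and 750 for WT-TAC2. Depth ranged from 14163994 to 21218331 fragments per library and did not separate WT-TAC1, which held 19828559. The summed level of thymocyte and T cell genes was 3324 FPKM in WT-TAC1 and 9.1 to 16.8 FPKM in the other 7, and that of 16 contractile cardiomyocyte genes was 36464 FPKM in WT-TAC1 and 65751 to 82206 FPKM in the other 7. The share of fragments from mitochondrially encoded genes was 11.7% for WT-TAC1, 19.3% for WT-TAC2 and 22.8% to 27.6% for the other 6 libraries. For this reason the genes are separated by WT-TAC library. A call on a named gene also passed the test with WT-TAC1 left out, unless its adjusted p without WT-TAC1 is given. In bulk tissue, fewer cells of a type and less RNA per cell cannot be told apart.

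With both WT-TAC libraries, limma called 201 genes lower (1.42% of those examined) and 5 higher (0.0353%) in Fat1-TAC, with thresholds of 0.1 on the adjusted p (Benjamini-Hochberg) and 1.5-fold on the change. With WT-TAC1 left out, 133 of the 201 remained among 186 lower calls (1.31%), and 3 of the 5 remained among 4 higher calls (0.0283%). With WT-TAC2 left out, so that WT-TAC1 alone stood for the group, 6685 genes were called lower (47.2%) and 1069 higher (7.55%). In these fits the single WT-TAC library was assumed to vary like the other groups. These counts depended on the settings: 19 genes were lower and 1 higher with median of ratios scaling, 13 and 1 with quantile normalization, and 51 and 1 with the replicate number as a block. Genes called under another setting were not always among the 201. A fit of the 4 TAC libraries alone called 41 lower, of which 19 were among them. Without Fat1-TAC1, 4 genes were called lower, without Fat1-TAC2 125, and without single sham libraries 39 to 77. Called against each WT-TAC library alone were 177 genes lower, 3 higher and 0 in opposite directions. The median gene lay at -0.41 on the log2(FPKM + 1) scale, at -0.58 against WT-TAC1 and at -0.20 against WT-TAC2, and gene lists below are read against that shift. At an unadjusted p under 0.05 and 1.5-fold, 3379 genes were lower and 244 higher. An exact two-sided permutation test of 2 against 2 libraries cannot go below p = 0.333, so no single value was tested that way.

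The genes were then separated by the WT-TAC library they differed from, as a description without a test. A gene was put below a WT-TAC library where both Fat1-TAC libraries lay at least 1.5-fold under it on the FPKM + 1 scale. This placed 1145 genes (8.09%) lower than both WT-TAC libraries and 27 (0.191%) higher than both. A difference from WT-TAC1 only was the largest changed class, with 5169 genes (36.5%) lower and 892 (6.3%) higher. Differences from WT-TAC2 only were fewer, with 289 genes (2.04%) lower and 17 (0.12%) higher, and 18 genes (0.127%) lay between the WT-TAC libraries in opposite directions. The remaining 6597 genes (46.6%) differed from neither. Of the 201 lower calls, 200 lay in the class lower than both and 1 in the class lower than WT-TAC1 only, and all 5 higher calls lay in the class higher than both. Without any minimum size, both Fat1-TAC libraries were below both WT-TAC libraries for 8151 genes (57.6%) and above both for 1317 (9.3%). Class counts in the gene lists below are read against these shares, and calls against 1.42% lower and 0.0353% higher.

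**Figure D1:**
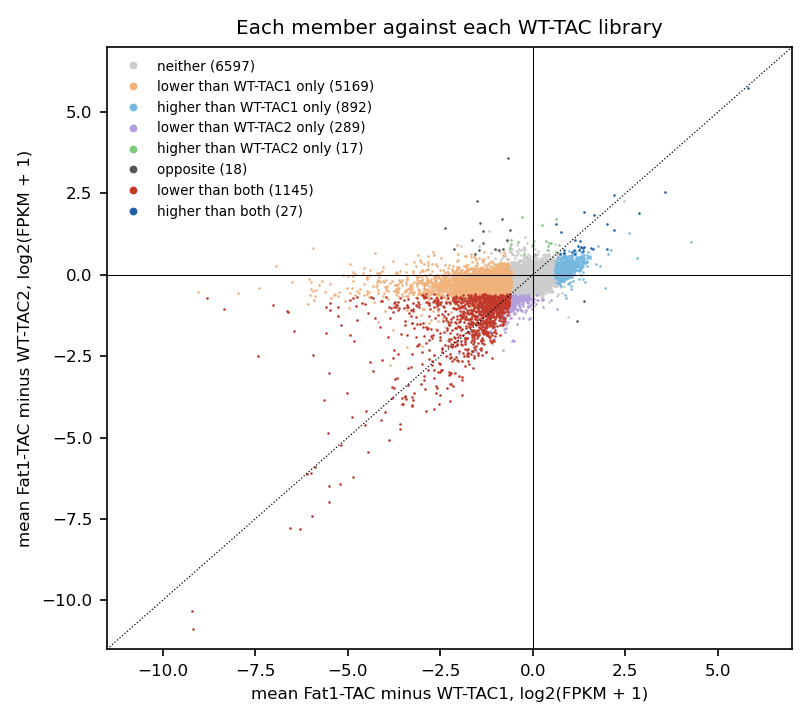
Each point is 1 of 14154 genes, with the mean of the Fat1-TAC libraries minus WT-TAC1 on the x axis and minus WT-TAC2 on the y axis, both in log2(FPKM + 1), coloured by class with the number of genes in the key. The 5169 genes lower than WT-TAC1 only form a band along the x axis, and the 1145 genes lower than both run along the dotted line of equal difference.

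Set against the sham libraries, the 1145 genes lower than both were mostly higher in the WT-TAC libraries. Their median log2 difference from the sham mean was 1.18 in WT-TAC1, 0.88 in WT-TAC2 and -0.19 in Fat1-TAC. Both WT-TAC libraries exceeded all 4 sham libraries for 935 of these genes (81.7%), and both Fat1-TAC libraries lay within the sham range for 587 (51.3%). Genes lower than WT-TAC1 only stood at 1.18 in WT-TAC1, 0.28 in WT-TAC2 and 0.02 in Fat1-TAC on the same scale. Genes higher than WT-TAC1 only stood at -0.81, -0.12 and 0.07 in that order. Among the 201 lower calls, for 195 the lower WT-TAC value exceeded every one of the 6 other values. The medians of the airway, atrial, adipocyte, matrix, macrophage, complement, immunoglobulin, lipogenic and PUFA lists described below were negative under all 4 scalings tried. These counts use the libraries by which the classes were formed and are given as a description.

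**Figure D2:**
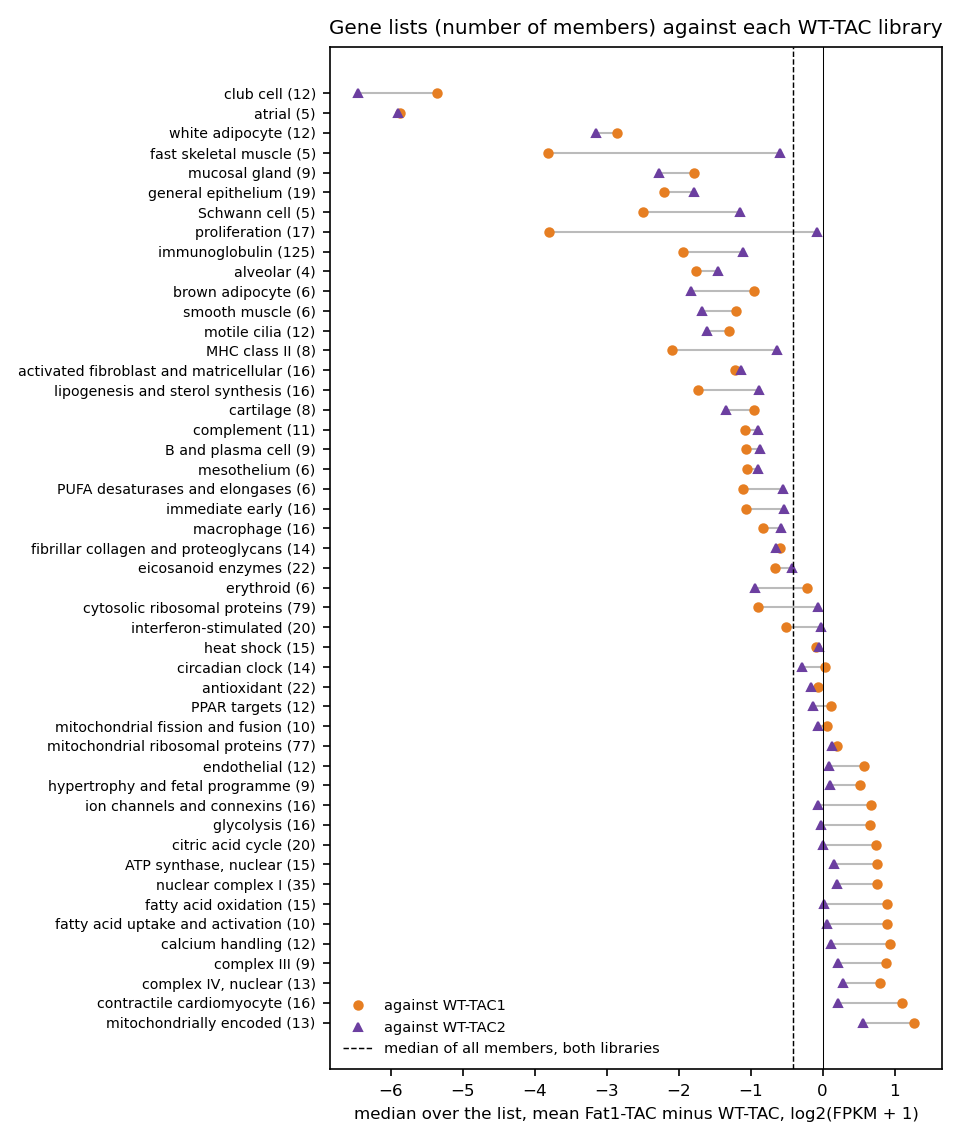
Each row is 1 gene list with its number of members, and the points show the median over the list of mean Fat1-TAC minus WT-TAC1 (circles) and minus WT-TAC2 (triangles) in log2(FPKM + 1). The club cell, atrial and white adipocyte medians are far below 0 against both libraries, whereas the proliferation median is -3.81 against WT-TAC1 and -0.08 against WT-TAC2.

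The largest decreases were in secretory products of the airway lining. Club cells are the secretory cells of the bronchiolar epithelium, and all 12 members of their marker list lay lower than both WT-TAC libraries, of which 11 were called. The median of the list was -5.91, or -7.79 with the 8 genes that had 3 fragments or fewer in each Fat1-TAC library set to the fold against 3 fragments. The filter favours such lists, because a gene below 1 FPKM in both Fat1-TAC libraries is counted through the WT-TAC libraries alone. This held for 11 of 12 club cell, 6 of 9 gland, 16 of 19 epithelial and 9 of 12 cilia genes. Their list counts and medians are therefore descriptions. The same holds for the calls, adjusted p and intervals of single genes counted in this way. The club cell median was -5.36 against WT-TAC1 and -6.45 against WT-TAC2. Bpifa1, an antimicrobial protein of the airway surface liquid, was 599.6 and 1968 FPKM in WT-TAC and 0.0661 and 0 FPKM in Fat1-TAC, which is 38263 fragments in the WT-TAC libraries and 1 in the Fat1-TAC libraries (ratio per depth 37290.0, 95% interval 6693 to 1473000.0, adjusted p = 0.0185). Scgb1a1, the club cell secretoglobin, was 707 and 1555 FPKM in WT-TAC and 0.45 and 0 FPKM in Fat1-TAC, which is 19968 and 4 fragments (ratio 4865, 95% interval 1900.0 to 17860.0, adjusted p = 0.0473). The intervals cover counting error only. Both genes were near 0 in 3 of the sham libraries, but Fat1-Sham1 held 10.6 FPKM of Bpifa1 and 33.1 FPKM of Scgb1a1.

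Other club cell genes repeated the order of the 4 libraries, highest in WT-TAC2, lower in WT-TAC1 and near 0 in Fat1-TAC. Scgb3a2, a further secretoglobin, was 92.9 and 219 FPKM in WT-TAC and 0 and 0 FPKM in Fat1-TAC, at least 619-fold lower when 3 fragments per library are taken as the limit that a count of 0 allows. Cyp2a5 and Cyp2f2 encode cytochromes P450 that metabolise xenobiotics in the airway. Cyp2a5 was 77.7 and 221 FPKM in WT-TAC and 0 and 0 FPKM in Fat1-TAC, at least 866-fold lower, and Cyp2f2 was 59.5 and 166 FPKM in WT-TAC and 0.05 and 0.669 FPKM in Fat1-TAC (log2 fold change -6.25 ± 0.64 (SE), adjusted p = 0.0185). The libraries of the 2 groups did not overlap for either gene, as was so in this direction for 57.6% of all genes examined. Scgb3a1 was 60.5 and 120.1 FPKM in WT-TAC and 0.294 and 0.404 FPKM in Fat1-TAC (log2 fold change -6.00 ± 0.57 (SE), adjusted p = 0.013). The lipid-binding protein gene Sec14l3 was 36 and 84.3 FPKM in WT-TAC and 0 and 0 FPKM in Fat1-TAC, at least 453-fold lower. Cbr2, a carbonyl reductase, differed from these genes in being present in every library: it was 312 and 529 FPKM in WT-TAC and 30.2 and 32.7 FPKM in Fat1-TAC, and 28.3 to 61.1 FPKM in the sham libraries, so that both Fat1-TAC values lay within the sham range (log2 fold change -3.65 ± 0.30 (SE), adjusted p = 0.00959).

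**Figure D3:**
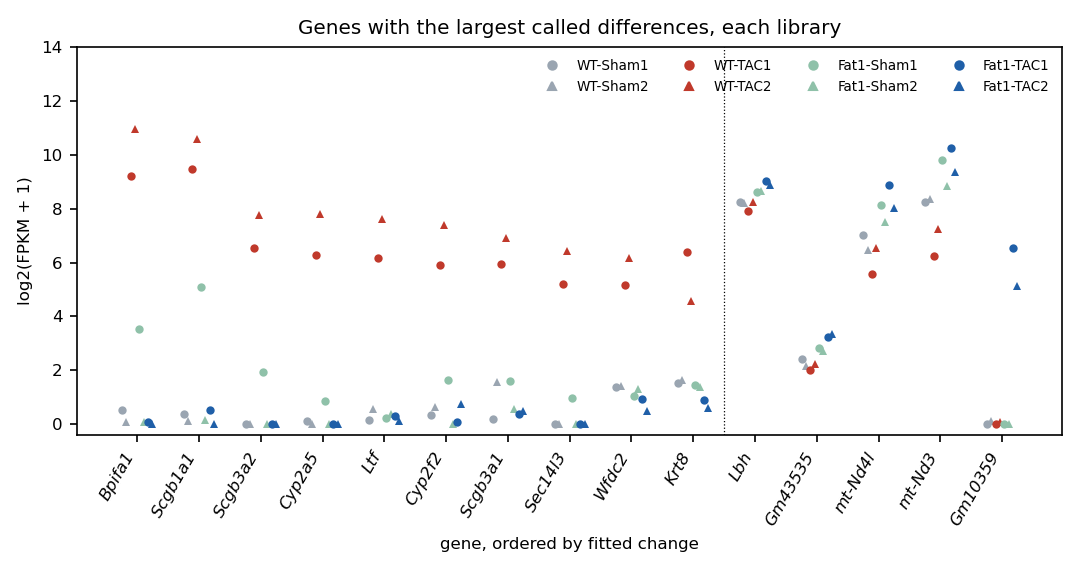
The log2(FPKM + 1) of each of the 8 libraries is plotted for the 10 largest called decreases (left of the dotted line) and the 5 called increases, ordered by fitted change, with circles for replicate 1 and triangles for replicate 2. For the decreases the red WT-TAC points lie above all other points, and for mt-Nd4l and mt-Nd3 the 8 libraries form a graded series with the WT-TAC libraries at or near the bottom.

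Products of submucosal glands were also among the calls. Of 9 members of the gland list, 6 were called lower and the median was -2.05, or -2.11 with 3 genes at their bound. Ltf, which encodes the iron-binding protein lactoferrin, was 71.2 and 196 FPKM in WT-TAC and 0.236 and 0.0809 FPKM in Fat1-TAC, which is 3363 and 4 fragments (ratio 819, 95% interval 319.7 to 3009, adjusted p = 0.00651). Wfdc2, a secreted protease inhibitor, was 34.9 and 70.7 FPKM in WT-TAC and 0.916 and 0.419 FPKM in Fat1-TAC (log2 fold change -4.94 ± 0.35 (SE), adjusted p = 0.00651), and 1.07 to 1.7 FPKM in the sham libraries. For Wfdc2 both Fat1-TAC libraries were below the sham range. Lyz1, a lysozyme of glands, was 9.74 and 6.22 FPKM in WT-TAC and 1.48 and 3.14 FPKM in Fat1-TAC and did not pass (adjusted p = 0.152).

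General epithelial genes were higher in WT-TAC1 than in WT-TAC2. Of 19 members, 18 lay lower than both WT-TAC libraries and 11 were called, with a median of -2.03 that became -4.14 with 10 genes at their bound. Krt8 and Krt18 encode the paired keratins of simple epithelia. Krt8 was 82.6 and 23 FPKM in WT-TAC and 0.86 and 0.519 FPKM in Fat1-TAC, and 1.59 to 2.11 FPKM in the sham libraries (log2 fold change -4.74 ± 0.52 (SE), adjusted p = 0.0228). Krt18 was 97.6 and 16.5 FPKM in WT-TAC and 0.956 and 1.38 FPKM in Fat1-TAC (log2 fold change -4.27 ± 0.71 (SE), adjusted p = 0.0716). The summed level of the list was 352 FPKM in WT-TAC1, 130.3 in WT-TAC2 and 8.69 to 22 in the other 6 libraries. Thymic epithelial genes were also high in WT-TAC1, at a sum of 426 FPKM against 7.58 in WT-TAC2, and their part in the keratin values was not tested.

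Motile cilia, the beating projections of the airway surface, were represented by 20 genes, of which 12 reached the level required and 8 were called lower. As given above, 9 of the 12 were counted through the WT-TAC libraries alone, so these counts are a description. The median was -1.44, or -3.43 with 7 genes at their bound. Ccdc153, a coiled-coil protein of motile cilia, was 12.9 and 9.83 FPKM in WT-TAC and 0 and 0 FPKM in Fat1-TAC, at least 47.1-fold lower (adjusted p = 0.00651). In the sham libraries it was 0 to 0.149 FPKM. Foxj1, the transcription factor that switches on motile ciliogenesis, was also called, as were Drc1, a subunit of the nexin-dynein regulatory complex, and the axonemal protein gene Cfap44, all 3 named after their values were seen. Foxj1 was 2.75 and 4.8 FPKM in WT-TAC and 0.0204 and 0.042 FPKM in Fat1-TAC, with 369 and 3 fragments by group (ratio 119.9, 95% interval 40.7 to 584). Drc1 was 2.49 and 2.51 FPKM in WT-TAC and 0 and 0.0606 FPKM in Fat1-TAC. Cfap44 was 1.38 and 2.63 FPKM in WT-TAC and 0 and 0.0207 FPKM in Fat1-TAC. All 6 other libraries were near 0 for these 3 genes. The low-abundance members Ccdc39 and Cfap126 did not pass (adjusted p = 0.142 and 0.156).

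Cilia genes are known targets of RFX factors, which bind a motif containing the letters GTTGCCA. This core was sought on both strands (reverse TGGCAAC) in RefSeq promoters on GRCm38.p6, from 250 bases before to 50 after the start. It was found in 5 of 17 cilia-list promoters (29.4%), in 12 of 130 promoters of genes called lower (9.23%) and in 3.79% of 10067 promoters of genes examined and 4.46% of all 27025. A forkhead core, TGTTTAC with reverse GTAAACA, was in 0 of 17 cilia-list, 0 of 9 club cell and 0 of 10 gland promoters, in 6.15% of those of genes called lower, in 2.52% of those of genes examined and in 3.55% of all promoters. The 2 promoters of called cilia genes that held the RFX core are shown because both genes are at 0 or near 0 in the Fat1-TAC libraries, with the matched letters in capitals. A match describes the letters and is not evidence of binding.
Drc1, chr5:30281143-30281442, + strand: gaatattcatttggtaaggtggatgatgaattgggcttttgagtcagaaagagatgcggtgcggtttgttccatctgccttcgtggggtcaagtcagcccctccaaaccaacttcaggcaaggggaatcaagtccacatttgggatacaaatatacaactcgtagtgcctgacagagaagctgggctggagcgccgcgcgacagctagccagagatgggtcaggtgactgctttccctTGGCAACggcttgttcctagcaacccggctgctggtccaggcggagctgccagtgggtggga
Cfap44, chr16:44394549-44394848, + strand: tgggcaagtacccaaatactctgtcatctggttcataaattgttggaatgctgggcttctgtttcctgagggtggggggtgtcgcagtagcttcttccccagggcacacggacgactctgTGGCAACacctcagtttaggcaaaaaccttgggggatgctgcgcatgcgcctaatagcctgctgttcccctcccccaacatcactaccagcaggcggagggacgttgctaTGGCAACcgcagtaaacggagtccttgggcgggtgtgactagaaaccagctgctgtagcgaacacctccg

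Genes of the gas-exchange part of the lung were mostly too low to be counted. Only 4 of 11 alveolar genes reached the level required, and 1 was called lower, where 1.42% of all genes examined were. Of these 4, 2 passed the filter through the WT-TAC libraries alone, Sftpd among them, so its call is a description. Sftpd, surfactant protein D, was 3.14 and 3.43 FPKM in WT-TAC and 0 and 0 FPKM in Fat1-TAC, at least 30.6-fold lower. The summed alveolar level was 118 and 17.3 FPKM in the WT-TAC libraries, 45.1 in Fat1-Sham1 and 4.48 to 7.34 in the other 5. Cartilage genes were present at low levels, with 8 of 17 counted and 1 called. Of these 8, 5 passed the filter through the WT-TAC libraries alone, so their class was fixed by the filter in large part. Acan, which encodes the cartilage proteoglycan aggrecan, was 1.49 and 2.22 FPKM in WT-TAC and 0.043 and 0.0664 FPKM in Fat1-TAC (log2 fold change -1.42 ± 0.23 (SE), adjusted p = 0.0653). The tissue of origin of these transcripts was not tested.

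**Figure D4:**
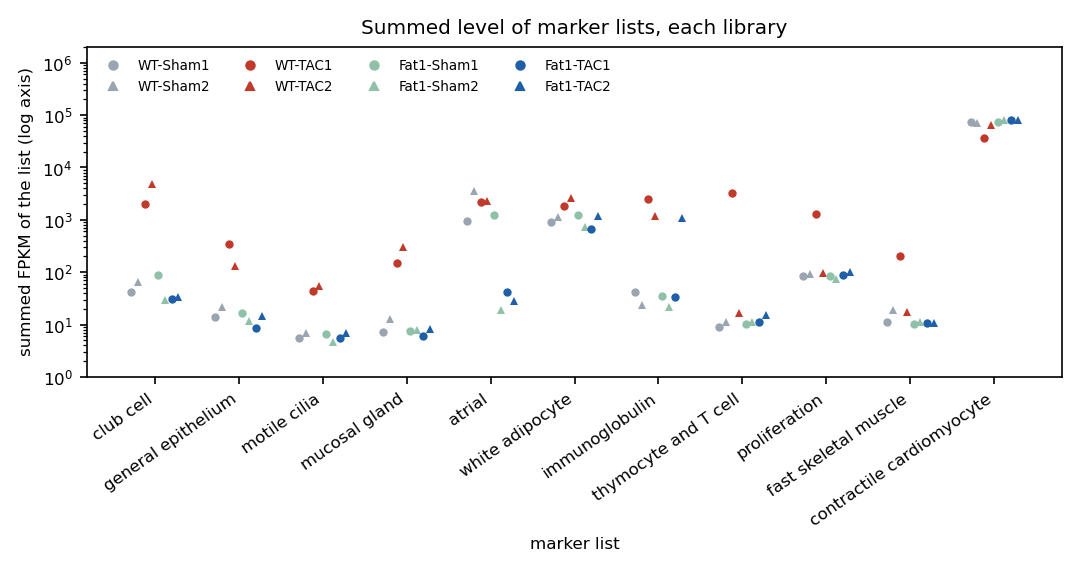
The summed FPKM of each marker list is plotted on a log axis for the 8 libraries, with circles for replicate 1 and triangles for replicate 2. Club cell, epithelial, cilia and gland sums are high in both WT-TAC libraries, thymocyte, proliferation and skeletal muscle sums in WT-TAC1 only, and immunoglobulin sums in both WT-TAC libraries and Fat1-TAC2.

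Atrial genes showed some of the largest differences without passing the test. Myl7 and Myl4 encode the atrial myosin light chains and Sln encodes sarcolipin, the atrial inhibitor of the calcium pump. Myl7 was 1035 and 1097 FPKM in WT-TAC and 18.3 and 12.7 FPKM in Fat1-TAC, Myl4 was 834 and 844 FPKM in WT-TAC and 16.9 and 10.3 FPKM in Fat1-TAC, and Sln was 241 and 244 FPKM in WT-TAC and 3.86 and 1.55 FPKM in Fat1-TAC. The log2 fold changes were -6.03, -5.89 and -6.11, with adjusted p of 0.15, 0.151 and 0.152. The groups did not overlap, as was so in this direction for 57.6% of all genes examined. The sham libraries spanned the same range, from 9.62 FPKM of Myl7 in Fat1-Sham2 to 1945 in WT-Sham2. A fit on the 4 TAC libraries alone, where this sham spread does not enter, called all 3 (adjusted p = 0.0286, 0.0286 and 0.0399 in that order). Nothing in the labels states how much atrium each library contained, and its part in these values was not tested.

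Adipocyte genes were lower on average, with Fat1-TAC1 the lowest library. Of 12 white adipocyte genes, 9 lay lower than both WT-TAC libraries and 0 were called, although 9 were lower at an unadjusted p under 0.05 and 1.5-fold. The median was -3.01. Car3, the carbonic anhydrase abundant in fat, was 479 and 612 FPKM in WT-TAC and 2.9 and 199 FPKM in Fat1-TAC. Pck1, which supplies glycerol for triglyceride storage in fat, was 96.8 and 102 FPKM in WT-TAC and 0.204 and 13.9 FPKM in Fat1-TAC (log2 fold change -4.57 ± 1.25 (SE), adjusted p = 0.15). In the sham libraries Pck1 was 7.14 to 61.2 FPKM. Both Fat1-TAC libraries were below both WT-TAC libraries, and they lay far from each other, for Pck1 as for Car3. Fabp4 and Dgat2, which are also expressed outside fat, had log2 fold changes of -0.42 and -0.15. Ucp1, the uncoupling protein of brown fat, was 39.4 and 102 FPKM in WT-TAC and 0 and 0.943 FPKM in Fat1-TAC (adjusted p = 0.152). Of 6 brown adipocyte genes, 3 were counted through the WT-TAC libraries alone, Ucp1 among them. Of the 6, 4 lay lower than both WT-TAC libraries and 2 differed from neither.

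Lipid synthesis gave the same order of the Fat1-TAC libraries. Of 16 lipogenic and sterol synthesis genes, 9 lay lower than both, 5 lower than WT-TAC1 only, and 0 were called, with a median of -1.25 and 14 lower at an unadjusted p under 0.05. Scd1, the stearoyl-CoA desaturase, was 297 and 662 FPKM in WT-TAC and 3.93 and 125 FPKM in Fat1-TAC. Fasn, the fatty acid synthase, was 193 and 532 FPKM in WT-TAC and 8.06 and 101 FPKM in Fat1-TAC. Acly, which provides cytosolic acetyl-CoA, was 103 and 160.0 FPKM in WT-TAC and 18.3 and 48 FPKM in Fat1-TAC (log2 fold change -2.07 ± 0.48 (SE), adjusted p = 0.125). Fat1-TAC2 lay within the sham range for these 3 genes and Fat1-TAC1 below it. Adipocyte markers moved with these values, and their part was not tested.

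Enzymes that make and process PUFAs bear on the substrate of the transgene. Of 6 desaturases and elongases, 0 were called, and 5 were below the median of all genes. Elovl5, which elongates PUFAs, was 66 and 40.5 FPKM in WT-TAC and 24.5 and 25.5 FPKM in Fat1-TAC (log2 fold change -1.02 ± 0.23 (SE), adjusted p = 0.12), and Fads3 was 14.8 and 22.3 FPKM in WT-TAC and 18.4 and 21.4 FPKM in Fat1-TAC (0.12). The genes of eicosanoid synthesis and breakdown, 22 in number, had a median of -0.59 with 0 called. Ptgds, the prostaglandin D2 synthase, was 106 and 218 FPKM in WT-TAC and 415 and 236 FPKM in Fat1-TAC, and Ephx2, the soluble epoxide hydrolase that inactivates fatty acid epoxides, was 44.1 and 80.7 FPKM in WT-TAC and 88.4 and 85.8 FPKM in Fat1-TAC. For both, WT-TAC1 was the lowest library and WT-TAC2 lay below both Fat1-TAC libraries. Ephx1, the microsomal epoxide hydrolase, was 75.5 and 81.6 FPKM in WT-TAC and 51.7 and 51.9 FPKM in Fat1-TAC, lower than WT-TAC2 only by the class rule.

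PPAR target genes divided. Angptl4, an inhibitor of lipoprotein lipase, was called lower at 18.5 and 17.4 FPKM in WT-TAC and 3.16 and 3.73 FPKM in Fat1-TAC, and 5.7 to 16.9 FPKM in the sham libraries (log2 fold change -2.10 ± 0.41 (SE), adjusted p = 0.0997). Without WT-TAC1 the call was lost (adjusted p = 0.185). It was the 1 call among 12 members, whose median was -0.01 and turned positive with the median of ratios and with quantile normalization. Pdk4, which restrains pyruvate oxidation, was 69.9 and 90.8 FPKM in WT-TAC and 196 and 80.7 FPKM in Fat1-TAC, so that Fat1-TAC2 overlapped the WT-TAC libraries. Plin2, which coats lipid droplets, was 83.9 and 103 FPKM in WT-TAC and 65.8 and 61.5 FPKM in Fat1-TAC (-0.54).

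The medians of matrix genes were below 0 against either WT-TAC library, while some of the calls were lost without WT-TAC1. Against WT-TAC1 the median of the collagen list described next was near that of all genes. Of 16 genes of activated fibroblasts and matricellular proteins, 11 lay lower than both, 0 lower than WT-TAC1 only, and 4 were called. Of all genes examined, 8.09%, 36.5% and 1.42% did so. The medians were -1.22 against WT-TAC1 and -1.14 against WT-TAC2, where all genes lay at -0.58 and -0.20. Fn1, fibronectin, was 63.2 and 66.8 FPKM in WT-TAC and 14.7 and 25.8 FPKM in Fat1-TAC, and 17.2 to 35.8 FPKM in the sham libraries (log2 fold change -1.69 ± 0.34 (SE), adjusted p = 0.0997). Postn, periostin, was 49.7 and 47.3 FPKM in WT-TAC and 26.2 and 19.1 FPKM in Fat1-TAC and did not pass (adjusted p = 0.163). Ccn2, Thbs1 and Eln, named after their values were seen, encode connective tissue growth factor, thrombospondin-1 and elastin and were the other calls, at -1.67, -1.49 and -1.22. Without WT-TAC1 the calls of Fn1 (adjusted p = 0.176) and Eln (0.176) were lost. Markers of other tissues were high in the same libraries: the cartilage sum was 26.9 and 43.2 FPKM in WT-TAC and 6.51 and 5.98 FPKM in Fat1-TAC, and the club cell sum was 1973 and 4923 FPKM in WT-TAC and 31.2 and 33.7 FPKM in Fat1-TAC. The part of such tissue in the matrix, macrophage and complement values was not tested.

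Collagens followed. Of 14 genes in a list of collagens, proteoglycans and the fibroblast markers Pdgfra and Tcf21, 7 lay lower than both and 2 were called, and 11 were below the median of all genes. The list median was -0.59 against WT-TAC1, where all genes examined lay at -0.58. Against WT-TAC2 it was -0.65, where all genes lay at -0.20. In FPKM 0 of the 14 were above 0, and 3 with median of ratios scaling and 5 with quantile normalization. Col1a2 was 150.4 and 153 FPKM in WT-TAC and 61.3 and 64 FPKM in Fat1-TAC, and 60.6 to 128 FPKM in the sham libraries (log2 fold change -1.26 ± 0.24 (SE), adjusted p = 0.0901). Col3a1 was 243 and 223 FPKM in WT-TAC and 103 and 113 FPKM in Fat1-TAC, and 132 to 234 FPKM in the sham libraries (log2 fold change -1.10 ± 0.22 (SE), adjusted p = 0.0997). The groups did not overlap, as was so in this direction for 57.6% of all genes examined, while WT-Sham2 reached the WT-TAC level for Col3a1. Without WT-TAC1 both calls were lost (adjusted p = 0.163 and 0.176). Dcn, decorin, was 438 and 443 FPKM in WT-TAC and 304 and 311 FPKM in Fat1-TAC (adjusted p = 0.169). As a share of the contractile sum, the list was 3.75% in WT-TAC1, 2.13% in WT-TAC2, 1.003% in each Fat1-TAC library and 0.942% to 2.06% in the sham libraries.

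Smooth muscle genes were lower without a call. Of 6 members, 4 lay lower than both WT-TAC libraries, and the median was -1.44. Acta2, smooth muscle actin, was 135 and 178 FPKM in WT-TAC and 56.3 and 41.4 FPKM in Fat1-TAC, and 47.7 to 212 FPKM in the sham libraries. Smtn, smoothelin, did not share the difference at 58.7 and 101 FPKM in WT-TAC and 81 and 102 FPKM in Fat1-TAC. Schwann cell genes also had a low median (-1.99, 5 members, 0 called), with 2 of the 5 counted through the WT-TAC libraries alone.

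Of the inflammatory groups, macrophage genes had 2 calls in 16, Lyz2 and Lgals3, where 1.42% of all genes examined were called lower. Of the 16, 9 lay lower than WT-TAC1 only, 4 lower than both and 1 lower than WT-TAC2 only. Of all genes, 36.5%, 8.09% and 2.04% lay in these classes. The median was -0.82 against WT-TAC1 and -0.58 against WT-TAC2, where all genes lay at -0.58 and -0.20. Lyz2, the macrophage lysozyme, was 343 and 271 FPKM in WT-TAC and 161 and 139 FPKM in Fat1-TAC, and 155 to 193 FPKM in the sham libraries (log2 fold change -1.02 ± 0.17 (SE), adjusted p = 0.0705). Lgals3, galectin-3, was 46.6 and 26.7 FPKM in WT-TAC and 4.74 and 6.3 FPKM in Fat1-TAC (log2 fold change -2.49 ± 0.46 (SE), adjusted p = 0.0859). For Lgals3 the Fat1-TAC libraries lay at the lower end of the sham values, and its call was lost without WT-TAC1 (adjusted p = 0.177). C1qa and C1qc, complement components made by resident macrophages, were nearer to WT-TAC2 (-0.40 and -0.31) than to WT-TAC1 (-0.75 and -0.87) and did not pass. Of 11 complement genes, 7 lay lower than both and C1s1, a serine protease of the classical pathway, was called at 47.3 and 45.5 FPKM in WT-TAC and 19.4 and 25.5 FPKM in Fat1-TAC, though not without WT-TAC1 (adjusted p = 0.164). C3, the central complement protein, was 565 and 638 FPKM in WT-TAC and 214 and 265 FPKM in Fat1-TAC (log2 fold change -1.33 ± 0.29 (SE), adjusted p = 0.117). Msln, a mesothelial surface protein, was called at 15.4 and 26.3 FPKM in WT-TAC and 5.65 and 7.12 FPKM in Fat1-TAC.

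Immunoglobulin transcripts were high in both WT-TAC libraries and in 1 Fat1-TAC library. The list held 177 genes matched by symbol, of which Ighmbp2 encodes a helicase and is no immunoglobulin. It was not called and was 4.67 and 1.69 FPKM in WT-TAC and 1.84 and 1.81 FPKM in Fat1-TAC. The summed level of the list was 2519 and 1209 FPKM in the WT-TAC libraries and 34.1 and 1089 FPKM in the Fat1-TAC libraries, against 21.5 to 41.8 in the sham libraries. Igkc, the kappa constant region, was 656 and 309 FPKM in WT-TAC and 5.73 and 299 FPKM in Fat1-TAC, so that Fat1-TAC2 lay close to WT-TAC2. Of 125 members, 17 were called lower, where 1.42% of all genes examined were. The filter favours this count, because 21 of the 125 were below 1 FPKM in both Fat1-TAC libraries and counted through WT-TAC alone. Among the calls was Igkv5-43, a kappa variable segment, at 55.8 and 20.6 FPKM in WT-TAC and 0 and 2.04 FPKM in Fat1-TAC. Reads of such near-identical segments can be split between family members by the counting, so single segments are uncertain. Jchain, which joins polymeric antibodies of plasma cells, was 67.4 and 28.7 FPKM in WT-TAC and 0.631 and 24.5 FPKM in Fat1-TAC and followed the same pattern.

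Among 201 lower calls, 4 were microRNA genes, named after their values were seen and each resting on at most 9 fragments in a library. All 4 were below 1 FPKM in both Fat1-TAC libraries and were examined through the WT-TAC libraries alone, so their calls are a description. Mir6392, called lower at 4.2 and 4.12 FPKM in WT-TAC and 0.496 and 0.51 FPKM in Fat1-TAC, held 9 and 8 fragments in the WT-TAC libraries and 1 in each Fat1-TAC library (ratio 8.28, 95% interval 1.97 to 73.9). It lies at chr15:84168270-84168377 on the + strand of GRCm38, inside Pnpla3 on the same strand, a lipid droplet lipase gene that was 6.68 and 11.9 FPKM in WT-TAC and 0.161 and 2.62 FPKM in Fat1-TAC. Reads of the host transcript and of the hairpin cannot be told apart in such libraries. Mir7087, Mir7237 and Mir5623 likewise overlap Sidt2, Banp and Atrnl1 on the same strand. Without WT-TAC1 the call of Mir7237 was lost (adjusted p = 0.186). Their 8 mature sequences carry 8 different seeds (bases 2 to 8). Those of Mir6392, the gene of this kind with the most fragments, are shown with the seed in capitals, from RefSeq on GRCm38.p6.
mmu-miR-6392-5p: uCUGGCGCccugguccugucagc
mmu-miR-6392-3p: gACGCAGGuuugccggguccucu

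Single calls also fell in lists with no other call. Cox6a1, the general isoform of a cytochrome oxidase subunit, was called lower at 358 and 414 FPKM in WT-TAC and 193 and 208 FPKM in Fat1-TAC (log2 fold change -0.94 ± 0.16 (SE), adjusted p = 0.0784). Its heart and muscle counterpart Cox6a2 was 841 and 1658 FPKM in WT-TAC and 2448 and 2498 FPKM in Fat1-TAC (1.07, adjusted p = 0.159). The paired isoforms thus lay on opposite sides of 0. Eno1, the general isoform, was called lower at 325 and 349 FPKM in WT-TAC and 151 and 176 FPKM in Fat1-TAC, and 153 to 219 FPKM in the sham libraries, and the muscle isoform Eno3 was 591 and 1079 FPKM in WT-TAC and 1137 and 1277 FPKM in Fat1-TAC (0.59, which became -0.11 with libraries scaled to the contractile genes, an alternative added after the data were seen). Under that scaling Cox6a1, Eno1 and Gpx1 kept their calls, at -1.64, -1.74 and -1.73. Without WT-TAC1 the calls of Eno1 and Gpx1 were lost (adjusted p = 0.135 and 0.145). Gpx1, the cytosolic glutathione peroxidase, was called lower at 165 and 149 FPKM in WT-TAC and 75.4 and 77 FPKM in Fat1-TAC (log2 fold change -1.03 ± 0.18 (SE), adjusted p = 0.0791). It was 1 of 4 antioxidant genes of 22 that lay lower than both. Another was Gpx3, the plasma glutathione peroxidase, at 524 and 594 FPKM in WT-TAC and 185 and 175 FPKM in Fat1-TAC (-1.63, adjusted p = 0.152). Sod1, the cytosolic superoxide dismutase, was 299.9 and 316 FPKM in WT-TAC and 286 and 292 FPKM in Fat1-TAC, and Gpx4, which reduces lipid peroxides, was 479.7 and 680.4 FPKM in WT-TAC and 817 and 699.6 FPKM in Fat1-TAC.

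On the higher side, the mitochondrially encoded genes stood out. For all 13, Fat1-TAC and WT-TAC did not overlap, with Fat1-TAC on top, as was so for 9.3% of all genes examined. Of the 13, 5 were higher by at least 1.5-fold against both, where 0.191% of all genes were. The calls numbered 2, where 0.0353% of all genes were called higher. The median was 0.90, with 1.27 against WT-TAC1 and 0.56 against WT-TAC2, and it became 0.09 with quantile normalization, where 7 of 13 were above 0. As a share of the contractile sum the groups overlapped, at 251% and 228% in WT-TAC and 279% and 236% in Fat1-TAC. mt-Nd3, a core subunit of complex I, was 74.5 and 150.1 FPKM in WT-TAC and 1210.0 and 652 FPKM in Fat1-TAC (log2 fold change 3.06 ± 0.46 (SE), adjusted p = 0.0554). In the sham libraries mt-Nd3 was 303 and 325 FPKM in WT-Sham and 891 and 456 in Fat1-Sham. mt-Nd4l, a further subunit of complex I, was 47 and 91.3 FPKM in WT-TAC and 468 and 257 FPKM in Fat1-TAC (log2 fold change 2.38 ± 0.42 (SE), adjusted p = 0.0791). Both genes had their lowest value of all 8 libraries in WT-TAC1, and without it both calls were lost (adjusted p = 0.114 and 0.165).

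The abundant mitochondrial transcripts differed less. mt-Co1, the catalytic subunit of cytochrome oxidase, was 32682 and 55424 FPKM in WT-TAC and 75012 and 63496 FPKM in Fat1-TAC. mt-Cytb was 17387 and 26459 FPKM in WT-TAC and 35981 and 35023 FPKM in Fat1-TAC, and mt-Nd1 was 12793 and 21317 FPKM in WT-TAC and 33282 and 28655 FPKM in Fat1-TAC. Their log2 fold changes were 0.70, 0.73 and 0.90 and none passed. mt-Atp6 and mt-Co3, named after their values were seen, differed most within the genotype: mt-Atp6 was 308 and 419 FPKM in WT-TAC and 2329 and 660.4 FPKM in Fat1-TAC, and mt-Co3 was 481 and 426 FPKM in WT-TAC and 2837 and 817 FPKM in Fat1-TAC. Reads of these genes can be shared with nuclear copies of mitochondrial DNA, such as the pseudogene Gm28661 on chromosome 1, which was 168 and 439 FPKM in WT-TAC and 628 and 484 FPKM in Fat1-TAC, so their levels are uncertain.

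The other 3 higher calls were of different kinds. Lbh, a transcriptional cofactor of heart and limb development, was 237 and 299.6 FPKM in WT-TAC and 518 and 464 FPKM in Fat1-TAC, and 296 to 399 FPKM in the sham libraries (log2 fold change 0.88 ± 0.17 (SE), adjusted p = 0.0901). Gm43535, an unclassified transcript, was 3.08 and 3.73 FPKM in WT-TAC and 8.49 and 9.07 FPKM in Fat1-TAC (log2 fold change 1.15 ± 0.21 (SE), adjusted p = 0.0803). Gm10359, a processed pseudogene on chromosome 5, was 0 and 0.0556 FPKM in WT-TAC and 91.1 and 33.7 FPKM in Fat1-TAC, and 0 to 0.0941 FPKM in the sham libraries, which is 2317 fragments in Fat1-TAC and 1 in WT-TAC (ratio 2377, 95% interval 426 to 93940.0, adjusted p = 0.00651). It was near 0 in Fat1-Sham as well, and since processed pseudogenes are near-identical to their parent genes its count is uncertain. Gm10359 was examined through the Fat1-TAC libraries alone, where it is high, so its values are a description. Under scaling to the contractile genes, mt-Nd3 and Gm10359 kept their calls and the other 3 lost them. Irx3 and Fgf16, a ventricular transcription factor and a cardiac growth factor chosen after their values were seen, lay higher than both WT-TAC libraries without a call. Irx3 was 4.89 and 9.44 FPKM in WT-TAC and 15 and 19.5 FPKM in Fat1-TAC (adjusted p = 0.143), and Fgf16 was 5.4 and 8.09 FPKM in WT-TAC and 13.1 and 15.6 FPKM in Fat1-TAC (adjusted p = 0.12).

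Genes lower than WT-TAC1 only included those of lymphocytes and of cell division. Cd4, the co-receptor of helper T cells, was 302 and 1.36 FPKM in WT-TAC and 0.571 and 1.05 FPKM in Fat1-TAC. Trbj1-3, a joining segment of the T cell receptor, was 305 and 1.07 FPKM in WT-TAC and 2.06 and 1.06 FPKM in Fat1-TAC, and Cd27, a lymphocyte receptor, was 161 and 1.05 FPKM in WT-TAC and 0.94 and 0.622 FPKM in Fat1-TAC. Each of these was at most 2.06 FPKM in the other 3 TAC libraries, with the highest in Trbj1-3. All 17 proliferation genes were lower than WT-TAC1 only, and their medians were -3.81 against WT-TAC1 and -0.08 against WT-TAC2. Top2a, the topoisomerase of dividing cells, was 214 and 2.95 FPKM in WT-TAC and 1.96 and 2.89 FPKM in Fat1-TAC. Parvg, a parvin of blood cells, was 90.2 and 1.47 FPKM in WT-TAC and 0.682 and 1.46 FPKM in Fat1-TAC. Limma, with both libraries in the group, called none of these genes (for Top2a, adjusted p = 0.193).

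Antigen presentation and protein synthesis were also mostly in this class. All 8 MHC class II genes lay lower than WT-TAC1 only. H2-Ab1 was 473 and 128 FPKM in WT-TAC and 65.5 and 106 FPKM in Fat1-TAC, so that Fat1-TAC2 lay within 1.5-fold of WT-TAC2 and Fat1-TAC1 did not. Of 79 cytosolic ribosomal protein genes, 63 were lower than WT-TAC1 only, with medians of -0.90 and -0.06 against the 2 libraries. Rps14 was 1198 and 647 FPKM in WT-TAC and 575 and 565 FPKM in Fat1-TAC. Of 5 fast skeletal muscle genes 2 were lower than WT-TAC1 only and 2 lower than both. Counted through the WT-TAC libraries alone were 2 of the 5, Tnnt3 among them. Mylpf, a light chain of fast fibres, was 65.4 and 1.15 FPKM in WT-TAC and 2.96 and 2.03 FPKM in Fat1-TAC, and Tnnt3, the troponin T of fast fibres, was 48.4 and 4.73 FPKM in WT-TAC and 0.505 and 0.715 FPKM in Fat1-TAC.

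Genes of the cardiomyocyte were higher than WT-TAC1 only. All 16 contractile genes were in this class, with a median of 0.63 that became -0.08 when libraries were scaled to these genes themselves, and with medians of 1.10 against WT-TAC1 and 0.21 against WT-TAC2. Myh6, the alpha myosin heavy chain, was 7406 and 13333 FPKM in WT-TAC and 12114 and 13232 FPKM in Fat1-TAC. Myl2, the ventricular regulatory light chain, was 5244 and 10107 FPKM in WT-TAC and 14851 and 14714 FPKM in Fat1-TAC (log2 fold change 1.02 ± 0.42 (SE), adjusted p = 0.167). WT-TAC2 matched the Fat1-TAC libraries for Myh6 and lay below them for Myl2. Of 12 calcium handling genes 11 were in the class, and Atp2a2, the calcium pump of the sarcoplasmic reticulum, was 2092 and 3691 FPKM in WT-TAC and 3507 and 3628 FPKM in Fat1-TAC. Irx4, a ventricular transcription factor, was 4.7 and 10.9 FPKM in WT-TAC and 13.8 and 14.7 FPKM in Fat1-TAC, and Fitm1, which promotes lipid droplet formation in muscle, was 30.4 and 63.8 FPKM in WT-TAC and 82.1 and 83.2 FPKM in Fat1-TAC.

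Energy metabolism followed the contractile genes. Of 15 fatty acid oxidation genes 14 were higher than WT-TAC1 only, as were 14 of 20 citric acid cycle genes, 30 of 35 nuclear complex I genes, 8 of 9 complex III genes and 11 of 15 ATP synthase genes. The medians against WT-TAC2 were 0.02, 0.00, 0.20, 0.21 and 0.15 in that order. No gene of these 5 lists was called, and all 5 medians turned negative with libraries scaled to the contractile genes. Acadm, the medium-chain acyl-CoA dehydrogenase, was 858 and 1514 FPKM in WT-TAC and 1610.4 and 1764 FPKM in Fat1-TAC. Fabp3, the fatty acid carrier of heart muscle, was 1362 and 2467 FPKM in WT-TAC and 3955 and 3553 FPKM in Fat1-TAC (log2 fold change 1.03 ± 0.31 (SE), adjusted p = 0.159), with Fat1-TAC above WT-TAC2 as well by 0.60 on the log2 scale.

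Divided by the contractile sum of the same library, these lists no longer set WT-TAC1 low. Nuclear complex I genes were 22.3% and 18.9% of the contractile sum in WT-TAC and 18.2% and 17.4% in Fat1-TAC, with 18.3% to 20.9% in the sham libraries. The corresponding values for ATP synthase were 30.4%, 25.4%, 22.6% and 22.7%. Citric acid cycle genes were 22.8%, 21%, 16.6% and 17.9%. On this scale both WT-TAC libraries lay above both Fat1-TAC libraries for these 3 lists, the reverse of the order in FPKM for complex I and ATP synthase. With libraries scaled to the contractile genes, 13 genes were higher than WT-TAC1 only, compared with 892 in FPKM, and 9009 were lower than WT-TAC1 only. Fatty acid oxidation genes were 12% and 11.6% in WT-TAC and 10.5% and 10.7% in Fat1-TAC. This ratio shows unequal change and does not say which of the 2 sums moved.

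**Figure D5:**
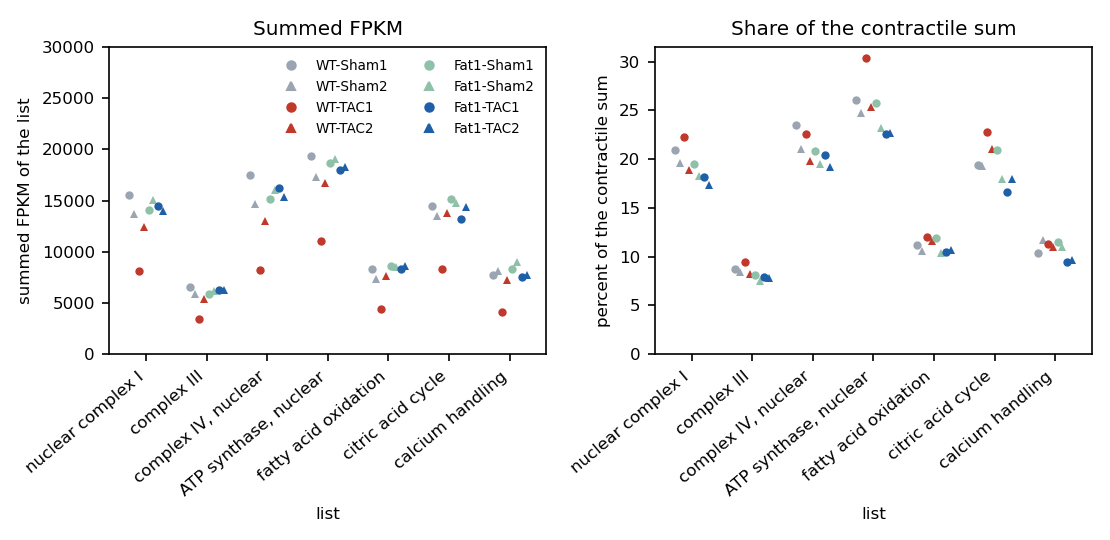
The left panel gives the summed FPKM of 7 lists in each library and the right panel the same sum as a percent of the contractile sum of that library, with circles for replicate 1 and triangles for replicate 2. WT-TAC1 is the lowest library for all 7 lists on the left and lies above both Fat1-TAC libraries for all 7 on the right.

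Differences from WT-TAC2 only were fewer. Against both WT-TAC libraries together, the median was -0.66 for genes lower than WT-TAC2 only and -0.71 for those lower than WT-TAC1 only. These medians include the WT-TAC library from which the class did not differ, so they do not give the gap to the other. Relative to the sham mean, genes lower than WT-TAC2 only stood at 0.31 in WT-TAC1, 0.71 in WT-TAC2 and -0.14 in Fat1-TAC. Agpat2, an acyltransferase of triglyceride synthesis, was 61.6 and 119.8 FPKM in WT-TAC and 43.9 and 51.3 FPKM in Fat1-TAC, and Mme, the peptidase neprilysin, was 6.7 and 13.4 FPKM in WT-TAC and 5.73 and 5.92 FPKM in Fat1-TAC. Among red cell genes, Hbb-bt, a beta globin, was 377 and 634 FPKM in WT-TAC and 226 and 278 FPKM in Fat1-TAC, and Hba-a1 was 1361 and 2717 FPKM in WT-TAC and 1296 and 1632 FPKM in Fat1-TAC. WT-TAC2 was the highest of the 4 TAC libraries for each of these genes. Near-identical globin copies can share reads, so their single values are uncertain. Of the 17 genes higher than WT-TAC2 only, Gm12922, a processed pseudogene, was 9.04 and 5.16 FPKM in WT-TAC and 11.2 and 12.3 FPKM in Fat1-TAC.

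Genes of mitochondrial ribosomes and the clock mostly differed from neither WT-TAC library, while hypertrophy genes were nearer to the share of all genes. Of 9 hypertrophy and fetal genes 5 differed from neither, where 46.6% of all genes examined did, and 0 were called. Of the others, 1 was lower than both, 2 were higher than WT-TAC1 only and 1 was lower than WT-TAC2 only. The exception in size was Nppa, the A-type natriuretic peptide that atria also make in quantity, named after its values were seen. It was 299 and 241 FPKM in WT-TAC and 13.6 and 11.1 FPKM in Fat1-TAC, and 9.04 to 259 FPKM in the sham libraries (-4.34, adjusted p = 0.134). Ankrd1, a stress-responsive titin partner, was 401 and 549 FPKM in WT-TAC and 575 and 606 FPKM in Fat1-TAC, and Nppb, the B-type natriuretic peptide, was 183 and 182 FPKM in WT-TAC and 264 and 178 FPKM in Fat1-TAC. The TAC libraries overlapped in Nppb, and the highest value of all 8, 418 FPKM, was in a sham heart. Acta1, the skeletal actin of the fetal programme, was 138 and 185 FPKM in WT-TAC and 421 and 262 FPKM in Fat1-TAC (adjusted p = 0.178). Of 77 mitochondrial ribosomal protein genes 69 differed from neither, with a median of 0.16 that was negative when scaled to the contractile genes. Dnm1l, the GTPase of mitochondrial fission, was 30.9 and 32.6 FPKM in WT-TAC and 28.6 and 31.2 FPKM in Fat1-TAC, and Opa1, the fusion GTPase of the inner membrane, was 53.4 and 73.2 FPKM in WT-TAC and 68.7 and 75.6 FPKM in Fat1-TAC. Of 14 clock genes 12 differed from neither, and Dbp, an output gene of the clock, was 65.3 and 104 FPKM in WT-TAC and 97 and 97.8 FPKM in Fat1-TAC, with 8.66 to 62.8 FPKM in the sham libraries. Directions in lists with medians near 0 depend on scaling, and those of the clock, heat shock, antioxidant and interferon-stimulated lists turned positive with the median of ratios and with quantile normalization.

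Whether the genotype difference after TAC differed from that after sham was tested as an interaction, which called 10 genes (0.0707%), 9 negative and 1 positive, with 999 at an unadjusted p under 0.05 and 1.5-fold. In the sham comparison itself the smallest adjusted p was 1. Ltf had the interaction -6.63 ± 0.64 (SE, adjusted p = 0.0534), from a difference of -6.69 after TAC and -0.06 after sham. Cyp2a5 gave -7.43 ± 0.70, and Ccdc153 -3.72 ± 0.32. The club cell, gland and cilia lists held 8 of the 10 called genes, and for each of these the WT-TAC libraries held the high values. All 8 lay under 1 FPKM in both Fat1-TAC libraries, so they were examined through the WT-TAC libraries alone. Their number and their adjusted p are therefore descriptions. Fits without WT-Sham1 or WT-Sham2 gave 0 calls, as did median of ratios scaling and quantile normalization, and the fit without WT-TAC2 gave 6613.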

How the data were processed

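RNA sequencing gave 8 heart libraries, 2 per group of genotype and surgery, and groups were taken from the sample titles. The authors deposited 1 table of FPKM values per gene and library. HISAT2 and the build GRCm38/mm10 are named in the submitters' processing notes, and the counting program and annotation are not given in the sources used here. FPKM divides out depth and transcript length but not composition, so a library with much RNA of other cells lowers the values of cardiomyocyte genes. The labels do not say that replicates came from separate animals, and p-values then measure only the spread between these libraries, which may be technical. Of 25929 genes, 25873 were matched to GENCODE for gene type, and 4 blank lines were dropped.

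Values were analysed as log2(FPKM + 1) with limma 3.58.1 in R 4.3.3, on the 14442 genes that reached 1 FPKM in 2 of 8 libraries or more, in 1 fit of 4 groups with contrasts for genotype after TAC and for the interaction with surgery. Fold changes on this scale understate those of low genes. P-values were adjusted by the Benjamini-Hochberg method over all genes fitted. Python 3.11.15, numpy 2.4.6, pandas 2.3.3 and matplotlib 3.10.9 were used for summaries and figures. Members and gene lists were chosen with earlier results of these data known. Genes were named by a rule: the 10 largest called decreases and increases with groups that did not overlap, the 3 most abundant members of each list and its largest call, the 6 largest gaps in each class of 1 WT-TAC library only, 6 genes of interest to the study (Fabp3, Pck1, Angptl4, Dnm1l, Opa1 and mt-Nd3), and defining markers. A few genes that the rule names are not reported here.

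The FPKM steps of a gene gave whole fragments for 99.996% of genes (tolerance 0.002 fragments), and limma-voom on these called 106 genes lower and 2 higher. Depth was 14163994 to 21218331 fragments, and a count of 0 allows up to 3 fragments, counting error only. Simulated data for the comparison of TAC groups covered 14032 genes, drawn with a preset dispersion of 0.03. Of 195 genes changed 4-fold, 190 were recovered (97.4%), 0 in the wrong direction, with 20 unchanged genes called. The preset dispersion was not matched to the WT-TAC libraries, which differed from each other more than the Fat1-TAC libraries did. The recovery therefore does not say how well changes are found in the real comparison. Promoter and microRNA sequences were read from RefSeq tables on GRCm38.p6. Alternatives covered scaling, filters, the pseudocount, the libraries fitted, the replicate block and each library left out. Scaling to the contractile genes was added after seeing the data.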

Additional observations from a re-analysis of the deposited data

Results flagged for a closer look

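For 10 genes the genotype difference after TAC differed from that after sham in the interaction test of limma (adjusted p between 0.0534 and 0.0789). The interaction on the log2 scale was -8.13 for Scgb3a2, -7.43 for Cyp2a5, -6.63 for Ltf, -6.29 for Sec14l3, -4.72 for Reg3g, -4.71 for Wfdc2, -4.23 for Bpifb1, -3.72 for Ccdc153 and -2.78 for Mir6392. It was 5.85 for Gm10359. In the first 8 genes the high values were in the WT-TAC libraries, through which alone they and Mir6392 were examined. Mir6392 had 0 fragments in both WT-Sham libraries and 2 in each Fat1-Sham library. Gm10359 was at 91.1 and 33.7 FPKM in Fat1-TAC and at most 0.0941 FPKM elsewhere, and was examined through the Fat1-TAC libraries alone. The adjusted p of these 10 genes are therefore a description.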

How the results depend on the processing

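Counts are given as genes called lower, higher and by interaction, against 201, 5 and 10 as reported. They were 19, 1 and 0 with median of ratios scaling, 13, 1 and 0 with quantile normalization, 14, 1 and 0 at a mean of 5 FPKM or more, 31, 2 and 0 with a pseudocount of 0.1, and 106, 2 and 0 with limma-voom on recovered fragments. A fit of the 4 TAC libraries alone called 41 and 1, with 19 of the 41 among the 201. Without a filter, 38 interactions were called, and scaling to the contractile genes, added after seeing the data, gave 2 higher and 26 interactions. With the replicate block, the counts were 51, 1 and 0. The numbers pair no samples by the labels, and deviations of equally numbered samples correlated at -0.135 to 0.0236 across genes. Leaving out 1 library gave 4 to 6685 lower, 1 to 1069 higher and 0 to 6613 interactions. The lowest count of lower calls was without Fat1-TAC1 and the highest without WT-TAC2. Fits without WT-Sham1, WT-Sham2, Fat1-Sham1 and Fat1-Sham2 gave 40, 39, 77 and 77 lower, and that without Fat1-TAC2 gave 125. Without WT-TAC1, 71 interactions were called. The classes lower than both, higher than both, lower than WT-TAC1 only, higher than WT-TAC1 only, lower than WT-TAC2 only and higher than WT-TAC2 only held 1145, 27, 5169, 892, 289 and 17 genes. With the median of ratios they held 595, 117, 2308, 2633, 369 and 44, and scaled to the contractile genes 3045, 5, 9009, 13, 24 and 10. At 2-fold they held 436, 5, 3212, 169, 117 and 9. A pseudocount of 0.1 gave 65 higher than both and 50 higher than WT-TAC2 only. At 5 FPKM, 599 were lower than both, 144 lower than WT-TAC2 only and 5 higher than WT-TAC2 only. Without 1 Fat1-TAC library, lower than both ranged from 1404 to 2050, higher than both from 80 to 109 and higher than WT-TAC2 only from 53 to 76. The cause of these moves was not tested. For the 200 named genes, 0 of the alternative values reversed a call, 3157 kept their side of the threshold, 264 lost it and 155 gained it.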
